A study of Homo sapiens with 2 samples.

Results

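The tubulin genes examined here are 3 alpha-tubulin genes (TUBA1A, TUBA1B, TUBA1C), 6 beta-tubulin genes (TUBB, TUBB2A, TUBB2B, TUBB3, TUBB4B, TUBB6) and the gamma-tubulin gene TUBG1. They were chosen by name, and all 10 were found among the 28303 genes with values. RNA had been sequenced from HGC27 cells at passage 4 to 6, a permanent line grown from a human gastric cancer. The cells of 1 library had been transfected with pcDNA3.1-linc01133, a plasmid for overexpression of the long non-coding RNA LINC01133, and those of the other with pcDNA3.1-control. Both cultures received plasmid by Turbofect reagent and were harvested 48 h later, and poly(A) RNA was sequenced. Each group is 1 library, so no difference below has a replicate check, no test was possible, and the values describe these libraries. The sources used here do not give the share of cells that took up plasmid, and less RNA per cell and fewer cells that hold it cannot be told apart.

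Microtubules are hollow polymers of alpha- and beta-tubulin pairs. They form the mitotic spindle and carry transport in the cytoplasm, and gamma-tubulin, in a ring-shaped complex, starts new ones. New tubulin chains are folded by prefoldin, the CCT chaperonin and a set of folding cofactors. The cell also regulates its own tubulin messages: when free tubulin is in excess, the factor TTC5 recognises the first residues of a tubulin chain as it leaves the ribosome, and the message is degraded with the help of SCAPER and the CCR4-NOT complex. Several genes encode each kind of tubulin, and their products, the isotypes, differ most in the acidic tail at the end of the chain.

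The coding starts are shown because the codons for these first residues lie there. Each sequence is from the annotated principal transcript in GENCODE 29, runs 5′ to 3′ from the start codon over 30 bases, and has its first 12 bases in capitals.
TUBA1A: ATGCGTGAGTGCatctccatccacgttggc
TUBA1B: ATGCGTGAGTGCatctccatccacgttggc
TUBA1C: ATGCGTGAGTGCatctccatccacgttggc
TUBB: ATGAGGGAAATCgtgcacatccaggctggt
TUBB4B: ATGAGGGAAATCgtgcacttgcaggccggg
TUBB2A: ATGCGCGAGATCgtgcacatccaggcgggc
TUBB2B: ATGCGTGAGATCgtgcacatccaggcgggc
TUBB3: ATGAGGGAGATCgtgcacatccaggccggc
TUBB6: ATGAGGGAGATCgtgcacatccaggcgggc
TUBG1: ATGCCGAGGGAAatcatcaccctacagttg
The 3 alpha-tubulin genes had the same 30 bases. The 6 beta-tubulin genes held 4 different spellings of the first 12 bases, and all of them encode the same 4 residues. TUBG1 differed from both sets.

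The coding ends of the beta- and gamma-tubulin genes are shown because they spell the tail in which the isotypes differ. Each line gives the last 63 bases of the coding sequence, with the stop codon in capitals.
TUBB: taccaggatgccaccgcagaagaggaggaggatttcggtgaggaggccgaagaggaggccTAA
TUBB4B: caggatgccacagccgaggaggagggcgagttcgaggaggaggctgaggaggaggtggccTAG
TUBB2A: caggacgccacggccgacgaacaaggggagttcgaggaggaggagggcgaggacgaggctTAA
TUBB2B: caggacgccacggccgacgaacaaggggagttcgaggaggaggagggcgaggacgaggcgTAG
TUBB3: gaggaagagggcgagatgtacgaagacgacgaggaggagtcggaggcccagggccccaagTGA
TUBB6: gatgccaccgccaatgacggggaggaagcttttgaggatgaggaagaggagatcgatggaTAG
TUBG1: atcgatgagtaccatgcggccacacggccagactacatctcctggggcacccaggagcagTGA
TUBB2A and TUBB2B differed at 2 of these 63 positions, while TUBB and TUBB4B differed at 29 and TUBB and TUBB3 at 36. Over the whole coding sequence, TUBA1A and TUBA1B were 97.2% identical, TUBA1A and TUBA1C 95.9%, and TUBB2A and TUBB2B 98.1%. By contrast TUBB was 84.4% identical to TUBB4B and 81.7% to TUBB3. Values of the near-identical genes are uncertain, since reads from their shared stretches can be split between them or lost.

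The measured value is FPKM, fragments scaled to the exon length of the gene and to the depth of its library, so levels of genes can be set side by side. The overexpression library held 16302581 counted fragments and the control library 15666629. LINC01133 itself had an FPKM of 1.44 in the overexpression library and 0.0809 in the control library, from 74 and 4 fragments. Of 6 listed gastric and epithelial markers, 0 had a mean FPKM of at least 1, and their FPKM summed to 0.688 in the overexpression library and 0.559 in the control library. KRT18 was at 0 in both libraries. Of 3 listed mesenchymal markers, VIM, the filament vimentin, had an FPKM of 210.02 in the overexpression library and 198 in the control library. FN1 had 3.62 and 3.50, and CDH2 had 0.0744 and 0.0516, from 6 and 4 fragments. Among the 11945 genes whose mean FPKM reached 1, 1421 (11.9%) were at least 2-fold higher and 53 (0.444%) at least 2-fold lower in the overexpression library, measured on FPKM + 1. The median log2 ratio of FPKM + 1 over these genes was 0.10, and 44.6% of them lay below 0.

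All 8 tubulin genes that these cells expressed above a mean FPKM of 1 had lower values in the overexpression library, by 22.8% for TUBB to 34.9% for TUBB2A. At 2-fold, 0 were higher and 0 lower, against 11.9% and 0.444% of all genes. The 2 others, TUBB3 and TUBB6, were detected at a low level in both libraries. Summed over the 10 genes, FPKM was 1174 in the overexpression library and 1606 in the control library, a ratio of 0.731. In fragments, they took 0.347% (95% exact binomial interval 0.344% to 0.349%) of the overexpression library and 0.473% (0.470% to 0.477%) of the control library. Intervals here and below cover counting error only, with each fragment taken as a separate molecule. PCR copies cannot be told from separate molecules, so the intervals can be too narrow. They say nothing of the variation between cultures.

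Among the beta-tubulins, TUBB, the class I isotype found in most cell types, was the most abundant tubulin message. It lies on chromosome 6 (30720201 to 30725426, plus strand), and all positions here are on GRCh38. Its FPKM was 437 (95% Poisson interval 432 to 443) in the overexpression library, against 567 (560.1 to 573) in the control library, from 23947 and 29813 fragments. It ranked 56 among the 28303 genes in the overexpression library and 53 in the control library. TUBB4B, a class IV isotype that is also widely expressed, lies on chromosome 9 (137241213 to 137243707, plus strand). Its FPKM was 339 (333 to 345) in the overexpression library, against 470.5 (463 to 478) in the control library. These 2 genes lay well above every other tubulin gene, and the intervals of the libraries did not overlap for either. The ratio of overexpression to control was 0.772 (Clopper-Pearson interval 0.759 to 0.785) for TUBB and 0.720 (0.703 to 0.738) for TUBB4B. The change of TUBB4B relative to TUBB was 0.933 (0.906 to 0.961) by counting error.

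TUBB2A and TUBB2B, the paired class II isotypes that are prominent in the nervous system, are neighbours on the minus strand of chromosome 6, at 3153669 to 3157526 and 3224261 to 3231730. TUBB2B was the more abundant, with an FPKM of 66.7 (64.0 to 69.4) in the overexpression library, against 91.4 (88.2 to 94.6) in the control library. TUBB2A had 19.4 (17.8 to 21.1) in the overexpression library, against 29.8 (27.8 to 31.9) in the control library. Both were lower in the overexpression library, with ratios of 0.730 (0.691 to 0.770) for TUBB2B and 0.651 (0.583 to 0.727) for TUBB2A. The level of TUBB2A relative to TUBB2B was 0.291 (0.265 to 0.319) in the overexpression library and 0.326 (0.302 to 0.352) in the control library, and the interval for the change in that relation, 0.892 (0.791 to 1.01), included 1. A share of 47.2% of the 100-base windows in TUBB2A transcripts occurs unchanged in TUBB2B transcripts, so the split between them is uncertain.

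TUBB3 and TUBB6 had low values, with 23 to 38 fragments a library. TUBB3, the class III isotype used as a marker of neurons, lies on chromosome 16 (89921392 to 89938761, plus strand). It had an FPKM of 0.526 (0.372 to 0.722) in the overexpression library, against 0.418 (0.280 to 0.6001) in the control library, from 38 and 29 fragments. TUBB6, a class V isotype on chromosome 18 (12307669 to 12344320, plus strand), had 0.477 (0.326 to 0.673) in the overexpression library, against 0.357 (0.226 to 0.535) in the control library, from 32 and 23 fragments. The libraries' intervals overlapped for both genes, and the ratios of 1.26 (0.756 to 2.12) and 1.34 (0.758 to 2.39) included 1, so no difference was detectable at this depth. Another protein-coding gene on the same strand, AC092143.1, shares 35.8% of the exon bases of TUBB3 and was not analysed here, so how fragments of the shared bases were assigned is not known. AFG3L2, on the opposite strand, shares 20.3% of those of TUBB6 and had an FPKM of 11.8 in both libraries. Whether shared bases lowered the values of TUBB3 or TUBB6 was not tested. Of 6 listed neuronal markers, NEFL alone passed a mean FPKM of 1, at 1.32 in the overexpression library and 1.98 in the control library.

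**Figure D1:**
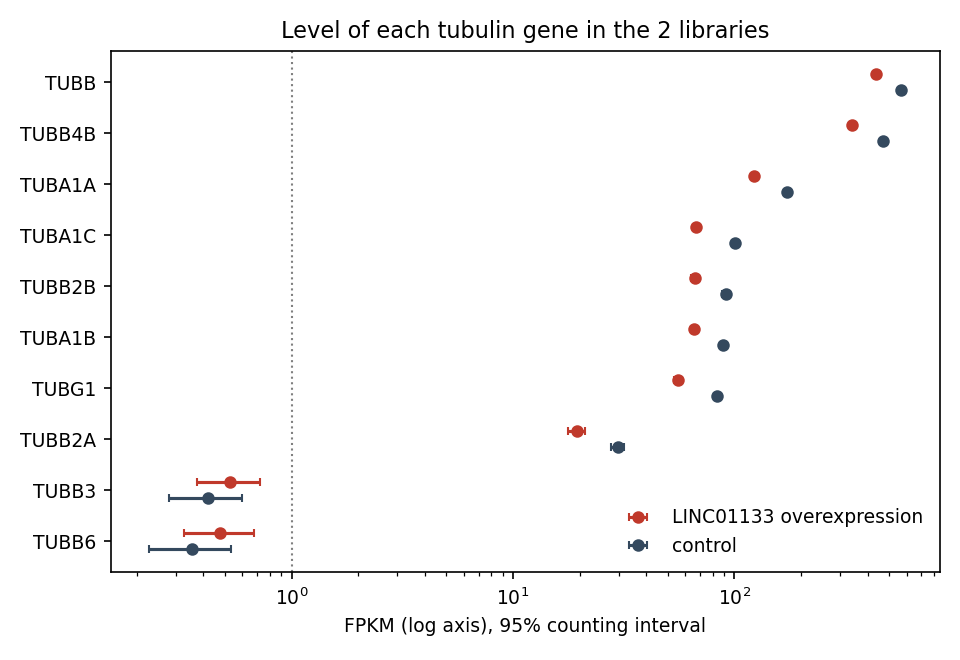
FPKM of the 10 tubulin genes on a log axis, with the overexpression library in red above the control library in blue and 95% Poisson intervals as bars. The 8 genes right of the dotted line at 1 have the red point left of the blue point, and the intervals overlap only for TUBB3 and TUBB6.

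The 3 alpha-tubulin genes sit together on chromosome 12, and all were lower in the overexpression library. TUBA1A, which is prominent in developing neurons, lies on the minus strand (49184796 to 49189324). It was the most abundant, with an FPKM of 123 (119.8 to 126) in the overexpression library, against 174 (170.4 to 177) in the control library. TUBA1C (49188736 to 49274603, plus strand) had 67.0 (65.1 to 68.8) in the overexpression library, against 100.4 (98.1 to 103) in the control library. TUBA1B, a widely expressed alpha-tubulin on the minus strand (49127782 to 49131397), had 65.5 (63.4 to 67.6) in the overexpression library, against 89.2 (86.8 to 91.7) in the control library. The libraries' intervals did not overlap for any of the 3 genes. Ratios were 0.706 (0.684 to 0.728) for TUBA1A, 0.667 (0.643 to 0.692) for TUBA1C and 0.734 (0.704 to 0.766) for TUBA1B. The change of TUBA1C relative to TUBA1B was 0.908 (0.860 to 0.960) by counting error, that of TUBA1C relative to TUBA1A was 0.945 (0.901 to 0.991), and that of TUBA1A relative to TUBA1B was 0.961 (0.912 to 1.01). TUBA1A and TUBA1C overlap head to head over 490 exon bases on opposite strands, 14.3% of TUBA1A and 10.6% of TUBA1C. An antisense gene, AC011603.2, covers 36.6% of the exon bases of TUBA1B, and had an FPKM of 0.113 in the overexpression library and 0.196 in the control library. Other overlaps on the opposite strand join TUBA1C to AC125611.3 (14.4% of its exon bases), TUBB to AL662797.1 (16.0%), TUBB2B to PSMG4 (7.93%), TUBB4B to FAM166A (5.87%) and TUBG1 to RETREG3 (5.77%). The sources used here do not give the strand setting of the counting, so reads of overlapping partners cannot be told apart.

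TUBG1, the gamma-tubulin gene active in most dividing cells, lies on chromosome 17 (42609676 to 42615234, plus strand). Its FPKM was 55.5 (53.2 to 57.8) in the overexpression library, against 83.6 (80.7 to 86.6) in the control library. The libraries' intervals did not overlap, and the ratio was 0.663 (0.628 to 0.701). Its paralogue TUBG2 had an FPKM of 7.99 in the overexpression library and 10.96 in the control library, a ratio of 0.729 (0.634 to 0.837). TUBG1 was 6.94 (6.21 to 7.76) times as high as TUBG2 in the overexpression library and 7.63 (6.93 to 8.40) times as high in the control library. The change of TUBG1 relative to TUBG2 was 0.910 (0.785 to 1.05), an interval that includes 1.

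The order of the levels was the same in both libraries: TUBB, TUBB4B, TUBA1A, TUBA1C, TUBB2B, TUBA1B, TUBG1, TUBB2A, TUBB3, TUBB6. In the overexpression library TUBA1C, TUBB2B and TUBA1B did not differ beyond counting error from their neighbour in that order, and in the control library TUBB2B and TUBA1B did not. TUBB3 and TUBB6 did not differ in either library. Parts of this order depend on the exon lengths used, which counting error does not cover. By the lengths of the longest coding transcript, the place of TUBA1C above TUBA1B turned. TUBA1B then made up 30.6% of the alpha-tubulin sum in the overexpression library and 29.4% in the control library. TUBA1C then made up 22.0% and 23.2%. By these lengths TUBG1 also stood above TUBB2B. TUBG1 had 2180 and 3159 fragments over 1611 bases in the overexpression and control libraries, and TUBB2B 2384 and 3140 over 2020. TUBA1B, with 3817 and 4995 fragments over 1627 bases, then stood above both. Ratios between the libraries were close to each other as well. Sorted by ratio, each of the 8 expressed genes overlapped in its interval with the next, from TUBB through TUBA1B, TUBB2B, TUBB4B, TUBA1A, TUBA1C and TUBG1 to TUBB2A, while the intervals of TUBB and TUBB2A at the ends did not overlap. For 8 of 8 expressed members the interval of the ratio lay below 1, against 32.2% of the 10942 genes past the filter that have such an interval. Genes with many fragments have narrower intervals, so that share is not of like genes. Of genes with a mean FPKM of 20 to 100, 68.0% had a log2 ratio below 0, and of those at 100 or more, 75.2%. In the bins of genes by GC content that hold the members, 53.0% to 90.1% did. At 1.5-fold on FPKM + 1, 1 of 8 members, TUBB2A, was lower, against 5.29% of all genes, and 0 were higher, against 26.8%. TUBG1 and TUBA1C fell just short of that threshold, with log2 ratios of -0.584 and -0.577. The count of 1 thus rests on a narrow margin.

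**Figure D2:**
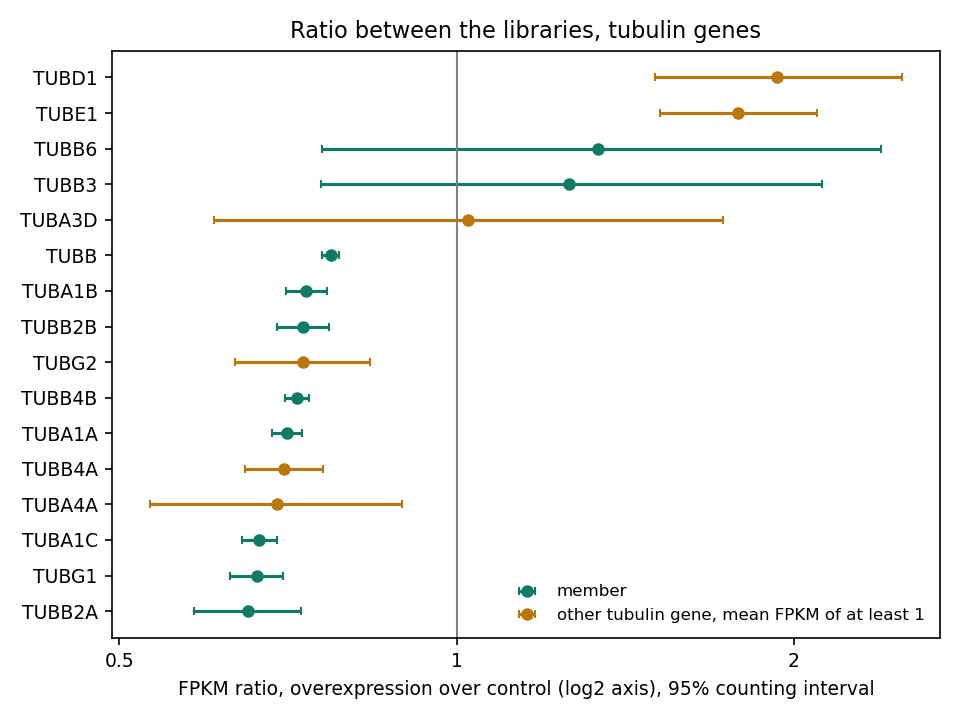
Ratio of FPKM between the libraries, overexpression over control, on a log2 axis with 95% Clopper-Pearson intervals, for the 10 members in green and 6 other tubulin genes in orange. The 8 expressed members lie between 0.651 and 0.772, TUBD1 and TUBE1 lie at 1.93 and 1.78, and the bars of TUBB3, TUBB6 and TUBA3D cross 1.

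The make-up of the tubulin pool by isotype differed little between the libraries. Among 7 listed alpha-tubulin genes, TUBA1A made up 47.5% of the summed FPKM in the overexpression library and 47.4% in the control library. TUBA1C made up 25.9% in the overexpression library and 27.3% in the control library, and TUBA1B 25.4% and 24.3%. Among 9 listed beta-tubulin genes, TUBB made up 49.6% in the overexpression library and 47.8% in the control library. TUBB4B made up 38.4% in the overexpression library and 39.7% in the control library, TUBB2B 7.55% and 7.70%, and TUBB2A 2.198% and 2.51%. No share moved by more than 1.79 percentage points in either family. Summed over the family, alpha-tubulin FPKM was 258 in the overexpression library and 367 in the control library, and beta-tubulin FPKM was 882 and 1186. The beta-tubulin sum was 3.42 times the alpha-tubulin sum in the overexpression library and 3.23 times in the control library. These shares depend on the exon lengths used: by counted fragments, not per length, TUBB made up 60.3% in the overexpression library and 58.7% in the control library. The relation of the beta-tubulin to the alpha-tubulin sum depends on these lengths as well. TUBA1B has 3574 exon bases, against 1627 in its longest coding transcript, and TUBB has 3359 against 2903. In counted fragments, beta-tubulin had 39683 and alpha-tubulin 15862 in the overexpression library, and 50828 and 21775 in the control library.

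**Figure D3:**
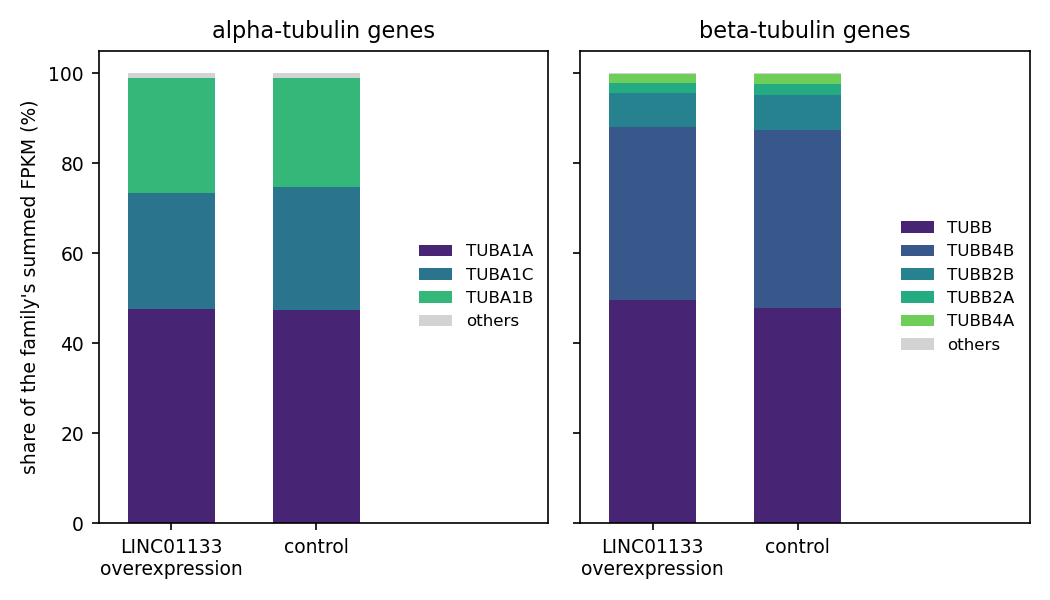
Share of each isotype in the summed FPKM of the alpha-tubulin and beta-tubulin genes, as stacked bars, with the overexpression library left of the control library in each panel. TUBA1A and TUBB lead at 47.5% and 49.6% in the overexpression library, and the bars of the libraries look alike.

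The other tubulin genes did not all move alike. Of 13 on the list 10 were matched, and 6 had a mean FPKM of at least 1. At 2-fold, 0 of these 6 were higher and 0 lower, against 11.9% and 0.444% of all genes. TUBB4A, a class IV isotype known from the nervous system, had an FPKM of 18.6 in the overexpression library and 26.5 in the control library, a ratio of 0.702 (0.648 to 0.761). TUBA4A had 1.58 in the overexpression library and 2.28 in the control library, a ratio of 0.691 (0.533 to 0.894). Like TUBG2, both were lower in the overexpression library, and their transcripts have GC contents of 57.8% to 62.0%. TUBD1 and TUBE1 encode delta- and epsilon-tubulin, which are known from centrioles, and had higher values in the overexpression library. TUBD1 had an FPKM of 3.52 in the overexpression library and 1.82 in the control library, a ratio of 1.93 (1.503 to 2.50), and TUBE1 had 3.85 and 2.16, a ratio of 1.78 (1.52 to 2.098). Their transcripts are AT-rich, with GC contents of 40.8% and 38.8%. TUBA3D had an FPKM of 1.27 in the overexpression library and 1.24 in the control library, a ratio of 1.02 (0.607 to 1.73), at a GC content of 58.2%. TUBA3E, TUBA8, TUBB1 and TUBB8 had at most 11 fragments in a library, and TUBA8 had 6 in the overexpression library and 0 in the control library, where 0, read as up to 3 fragments, allows an FPKM of up to 0.0526, and the exact Poisson limit is 0.0647. The files list 10 tubulin pseudogenes, with 94 fragments in the overexpression library and 140 in the control library in all, most of them from TUBBP1.

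Across the whole table, the log2 ratio followed the GC content of the transcripts, and the tubulin members lay on the GC-rich side. Their transcripts have GC contents of 51.6% (TUBA1C) to 59.4% (TUBB4B), against a median of 49.0% over all genes. The median log2 ratio of the 8 members was -0.49, with a range of -0.59 to -0.37, against 0.10 over all genes. Genes were ranked by GC content and split into 10 bins of equal size. In the bin from 49.0% to 52.3% the median was -0.03, and TUBA1A and TUBA1C had -0.50 and -0.58. In the bin from 52.3% to 55.5% it was -0.18, and TUBB and TUBA1B had -0.37 and -0.44. In the bin from 55.5% to 58.7% it was -0.30, and TUBB2B and TUBG1 had -0.45 and -0.58. In the bin from 58.7% to 62.3% it was -0.37, and TUBB4B and TUBB2A had -0.47 and -0.59. All 8 members thus lay below the median of their own bin, and 7 lay below its lower quartile, with TUBB4B the exception.

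With smooth trends on GC content and transcript length subtracted, keeping the median over all genes at 0.10, the members' values lay closer to 0. The median over the 8 members was then -0.12, still under the 0.10 of all genes, and 7 of 8 lay below 0, against 35.7% of all genes. TUBA1C had -0.40, TUBA1A -0.25, TUBA1B -0.15, TUBB -0.14, TUBG1 -0.10, TUBB2A -0.08, TUBB2B -0.01 and TUBB4B 0.045. The alpha-tubulin genes were lowest, and TUBB4B turned to a positive value. Level also moved with the log2 ratio. Genes with a mean FPKM of 100 or more, TUBB, TUBB4B and TUBA1A among them, had a median of -0.37, and those between 20 and 100, where the other 5 members lie, had -0.27. All 8 members lay below the median of their level bin, TUBB only just, at -0.373 against -0.370, and 3 of 8, TUBA1C, TUBB2A and TUBG1, lay below its lower quartile. With a trend on level subtracted as well, the median of the members was 0.0037, 4 of 8 lay below 0, against 34.6% of all genes, and TUBB, TUBB2B, TUBB4B and TUBG1 turned to 0.092, 0.13, 0.26 and 0.026. At 2-fold, 0 members were higher or lower with either set of trends subtracted, against 1.71% and 0.764% of all genes with the first set and 1.6% and 0.797% with the second. The part of base composition and level in the lower values was not tested. TUBD1 had 0.04 and TUBE1 -0.19 with the trends on GC content and length subtracted, so TUBE1 turned.

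Scaling the libraries in another way moved all genes together. By median-of-ratios scaling 0 of 8 members were 2-fold higher and 0 lower, against 8.25% and 0.929% of all genes, and 8 of 8 lay below 0, against 53.5%. With trimmed-mean scaling the members' counts were also 0, 0 and 8, against 8.06%, 0.988% and 53.9%. By the upper quartile they were again 0, 0 and 8, against 5.47%, 4.24% and 61.5%. TUBG1, TUBB2A and TUBA1C came close to the 2-fold threshold there, at -0.998, -0.997 and -0.992 on FPKM + 1. The 0 lower by that scaling thus rests on a narrow margin.

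**Figure D4:**
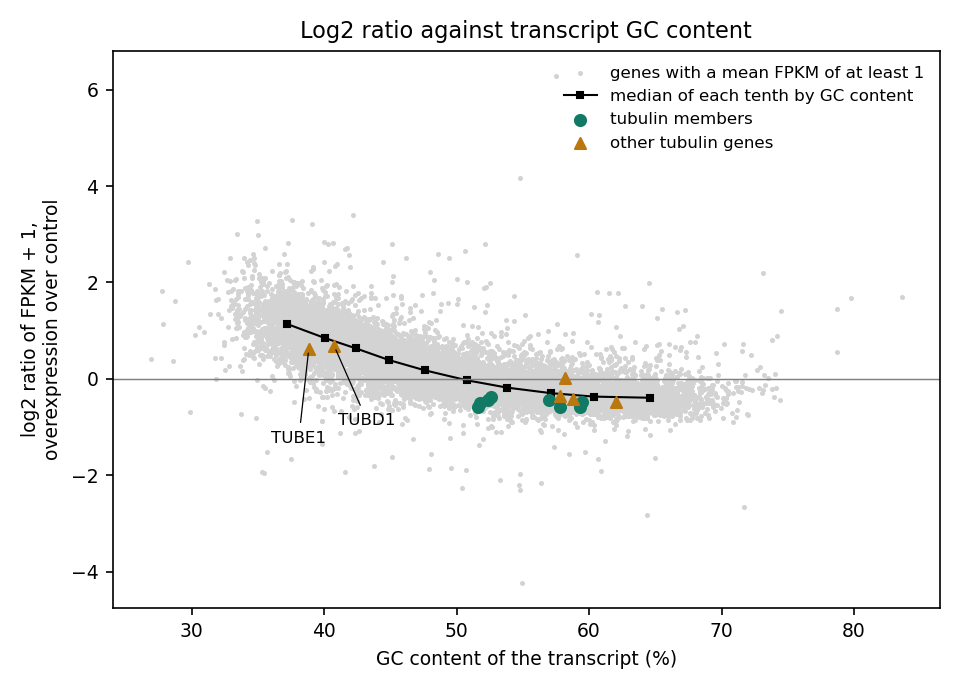
Log2 ratio of FPKM + 1, overexpression over control, against the GC content of the transcript for all genes whose mean FPKM reached 1, in grey. The black line joins the medians of 10 bins of genes by GC content, the 8 members in green lie under it between 51.6% and 59.4%, and TUBD1 and TUBE1 lie above 0 at the AT-rich end.

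The genes nearest to the most and the least abundant expressed member in level over the 2 libraries were sought as well. Nearest to TUBB by distance in log2(FPKM + 1) were RPS26 (FPKM 404 in the overexpression library and 552 in the control library), TPI1 (401 and 566) and RPL10A (477 and 535). Nearest to TUBB2A were GIT1 (19.6 and 29.9), GCAT (19.4 and 29.3) and POR (19.2 and 29.1). With 2 libraries, this likeness is no more than a similar level and ratio.

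Promoter windows of 300 bases around the members' starts were taken from RefSeq on GRCh38.p14, where the 10 genes have 15 windows. The CCAAT box (CCAAT on either strand), known as the site of the factor NF-Y, occurred in 10 of 15 windows, against 34.6% of 35116 windows of all genes. Of these 10 windows 3 belong to TUBA1C, and 2 of those overlap and hold the same box. The GC box (GGGCGG on either strand) occurred in 9, against 45.0%, and TATAAA on either strand in 1, against 11.5%. A match is a description of the letters only. TUBB4B is shown as the window with the most CCAAT boxes, and TUBA1B as one with GC boxes and no CCAAT box, with the matches in capitals. That of TUBB4B is chr9:137241037-137241336 on the plus strand and that of TUBA1B chr12:49131346-49131645 on the minus strand.
TUBB4B: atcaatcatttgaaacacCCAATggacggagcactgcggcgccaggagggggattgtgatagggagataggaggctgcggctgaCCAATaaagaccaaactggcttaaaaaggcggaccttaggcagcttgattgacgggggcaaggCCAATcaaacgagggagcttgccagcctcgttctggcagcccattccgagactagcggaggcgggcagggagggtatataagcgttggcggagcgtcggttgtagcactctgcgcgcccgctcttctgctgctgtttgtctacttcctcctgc
TUBA1B: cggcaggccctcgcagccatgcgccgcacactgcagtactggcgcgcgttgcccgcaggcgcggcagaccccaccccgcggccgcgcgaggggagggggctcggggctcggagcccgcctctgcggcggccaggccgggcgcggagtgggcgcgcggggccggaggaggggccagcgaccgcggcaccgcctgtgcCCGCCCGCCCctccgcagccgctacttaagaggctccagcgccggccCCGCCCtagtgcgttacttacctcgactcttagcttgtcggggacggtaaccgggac
TUBB4B holds 3 CCAAT boxes and 0 GC boxes, and TUBA1B 0 CCAAT boxes and 3 GC boxes, 2 of which share bases. The ratios of these genes were 0.720 and 0.734, with overlapping intervals.

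Factors that fold tubulin did not all move as the tubulin genes did. Of 6 measured folding cofactors and related genes, 0 were 2-fold higher and 0 lower, against 11.9% and 0.444% of all genes, with a median log2 ratio of -0.37. The intervals of 4 lay below a ratio of 1 and those of 2 above it, against 32.2% and 42.6% of all genes. TBCB, which binds alpha-tubulin, had an FPKM of 32.4 in the overexpression library and 53.3 in the control library, a ratio of 0.608 (0.573 to 0.646). ARL2, a small GTPase that works with the cofactors, had 6.77 and 12.2, a ratio of 0.557 (0.471 to 0.657), and TBCC had 15.7 and 20.4, a ratio of 0.771 (0.676 to 0.879). TBCA, which binds beta-tubulin, had 22.9 in the overexpression library and 19.95 in the control library, a ratio of 1.15 (1.05 to 1.25). TBCEL, a relative of the cofactors, had 1.97 and 1.09, a ratio of 1.80 (1.44 to 2.27). With the GC and length trends subtracted TBCA, whose transcript has a GC content of 32.6%, turned to -1.16 and TBCEL to -0.39, while TBCB and ARL2 were at -0.18 each.

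Prefoldin, which hands new chains to the chaperonin, had 6 measured subunits, of which 2 were at least 2-fold higher and 0 lower, against 11.9% and 0.444% of all genes, with a median log2 ratio of 0.01. PFDN4 had an FPKM of 10.2 in the overexpression library and 1.62 in the control library, a ratio of 6.32 (4.69 to 8.69), and VBP1 had 42.3 and 17.8, a ratio of 2.38 (2.15 to 2.63). PFDN5 had 36.2 in the overexpression library and 45.7 in the control library, a ratio of 0.792 (0.746 to 0.841), and PFDN2 had 97.0 and 106. With the trends subtracted PFDN4 was at 1.02 and VBP1 at 0.36. All 8 subunits of the CCT chaperonin were measured, with 0 of them 2-fold higher and 0 lower, against 11.9% and 0.444% of all genes, and a median of 0.26. CCT8 was highest by ratio, with an FPKM of 114 in the overexpression library and 71.1 in the control library, a ratio of 1.61 (1.54 to 1.68), and CCT7 lowest, with 275 and 349, a ratio of 0.787 (0.771 to 0.804). CCT3 had 261 in the overexpression library and 311 in the control library, and CCT4 had 177 and 155. CCT2 had 53.2 in the overexpression library and 36.2 in the control library, and CCT6A had 108 and 73.3. That median turned to -0.064 with the trends subtracted. The CCT subunits summed to an FPKM of 1158 in the overexpression library and 1138 in the control library, while the 8 expressed tubulin members summed to 1173 and 1605. The CCT transcripts have a median GC content of 44.6%, against 54.8% for the members. With the GC and length trends subtracted the median log2 ratios were -0.064 and -0.12, and with level as well 0.12 and 0.0037. The part of base composition in the difference between the sums was not tested.

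The ring complex that gamma-tubulin works in had 12 measured genes, of which 2 were at least 2-fold higher and 0 lower, against 11.9% and 0.444% of all genes, with a median log2 ratio of 0.25. MZT1, a small subunit, had an FPKM of 24.8 in the overexpression library and 7.16 in the control library, a ratio of 3.46 (3.01 to 3.99). NEDD1, which brings the complex to the centrosome and spindle, had 10.1 and 2.67, a ratio of 3.77 (3.21 to 4.45), and the scaffold AKAP9 had 1.61 and 0.543, a ratio of 2.96 (2.46 to 3.57). These higher genes are AT-rich, with GC contents of 32.0%, 35.5% and 38.2%. TUBGCP2, a core subunit, had 8.81 in the overexpression library and 13.2 in the control library. Its ratio was 0.665 (0.616 to 0.719), close to that of TUBG1. The other listed core subunits did not share that ratio. TUBGCP4 had a ratio of 1.27 (1.11 to 1.45), TUBGCP5 1.78 (1.53 to 2.08) and TUBGCP6 0.893 (0.781 to 1.02). TUBGCP3 had an FPKM of 5.83 in the overexpression library and 5.48 in the control library. MZT2A had 18.9 and 32.1, a ratio of 0.590 (0.550 to 0.633). With the trends subtracted MZT1 was at 0.26, NEDD1 at 0.43, AKAP9 at -0.23, TUBGCP2 at -0.13 and MZT2A at -0.18.

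Factors that degrade tubulin messages when free tubulin is in excess were higher in the overexpression library for 4 of 4 measured genes, against 6619 of all 11945. At 2-fold on FPKM + 1, 0 of the 4 were higher, against 11.9% of all genes, and the median log2 ratio was 0.35. TTC5, the recognition factor, had an FPKM of 2.09 in the overexpression library and 1.68 in the control library, a ratio of 1.25 (1.06 to 1.47). The CCR4-NOT subunit CNOT11 had 25.4 and 23.1, a ratio of 1.10 (1.01 to 1.19), CNOT10 had 5.77 and 2.82, a ratio of 2.05 (1.74 to 2.42), and CNOT1 had 25.6 and 17.8, a ratio of 1.43 (1.37 to 1.502). The transcripts of these 4 genes have GC contents of 42.1% to 49.6%. In the GC bin that holds TTC5, 5.96% of genes lay below 0, in that of CNOT10 and CNOT1 12.9%, and in that of CNOT11 53.0%. With the trends subtracted TTC5 turned to -0.37, while CNOT11, CNOT10 and CNOT1 were at 0.21, 0.53 and 0.17. SCAPER had an FPKM of 1.09 in the overexpression library and 0.643 in the control library, under a mean of 1. These ratios are on messages and say nothing of protein or of decay.

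The list of enzymes that modify tubulin, with their relatives and partners, had 15 measured genes and a median log2 ratio of -0.08. On FPKM + 1, a scale that shrinks the ratios of low genes, 1 was at least 2-fold higher and 0 lower, against 11.9% and 0.444% of all genes. AGTPBP1, which trims glutamates from the tails, had an FPKM of 16.2 in the overexpression library and 6.06 in the control library, a ratio of 2.68 (2.41 to 2.98). VASH2, which removes the last tyrosine of alpha-tubulin, had 2.11 and 0.695, a ratio of 3.03 (2.41 to 3.84), and TTLL7, which adds glutamates, had 1.82 and 0.551, a ratio of 3.31 (2.61 to 4.22). TTLL12, a relative of TTLL7, was the most abundant on the list, with 66.1 in the overexpression library and 92.5 in the control library. Its ratio was 0.715 (0.689 to 0.742), and AGBL5, which removes glutamates at branch points, had 14.1 and 15.9. With the trends subtracted AGTPBP1 was at 0.52, VASH2 at 0.19, TTLL7 at -0.32 and TTLL12 at -0.01.

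Structural microtubule proteins and severing enzymes had 14 measured genes, with 5 at least 2-fold higher and 0 lower, against 11.9% and 0.444% of all genes, and a median log2 ratio of 0.35. MAP1B and KATNAL1, named after their values were seen, are among the 5 and lie on the threshold, with log2 ratios of 1.0003 and 1.002. MAP9 had an FPKM of 2.78 in the overexpression library and 0.202 in the control library, from 402 and 28 fragments, a ratio of 13.8 (9.40 to 21.0). The severing enzyme SPAST had 7.13 and 2.39, and FIGNL1 had 4.97 and 1.83, a ratio of 2.72 (2.25 to 3.32). MAP4, which stabilises microtubules in many cell types, had 31.6 in the overexpression library and 36.5 in the control library, a ratio of 0.866 (0.839 to 0.893), and MAP7D1 had 41.8 and 53.3. MAP1S had 16.2 in the overexpression library and 27.1 in the control library, a ratio of 0.598 (0.558 to 0.641). With the trends subtracted MAP9 was at 0.26, SPAST at 0.47, FIGNL1 at 0.21, MAP4 at -0.19 and MAP1S at -0.22, and MAP7D1 turned to 0.14.

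Plus-end proteins, polymerases and destabilizers had 15 measured genes, with 3 at least 2-fold higher and 0 lower, against 11.9% and 0.444% of all genes, and a median log2 ratio of 0.37. CKAP2, a spindle protein, had an FPKM of 25.6 in the overexpression library and 7.72 in the control library, a ratio of 3.32 (3.02 to 3.66). The motor proteins KIF18A and KIF2A, which shorten or dampen microtubule ends, had 8.17 and 2.41 for KIF18A, a ratio of 3.40 (2.87 to 4.04), and 14.7 and 6.15 for KIF2A, a ratio of 2.39 (2.14 to 2.67). The end-binding protein MAPRE1 had 75.1 in the overexpression library and 57.97 in the control library, a ratio of 1.30 (1.23 to 1.37). TPX2, a spindle assembly factor, had 97.4 and 84.5, and STMN1, which sequesters free tubulin pairs, had 66.7 and 61.3. With the trends subtracted CKAP2 was at 0.56, KIF2A at 0.54, KIF18A at 0.40 and MAPRE1 at 0.01.

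**Figure D5:**
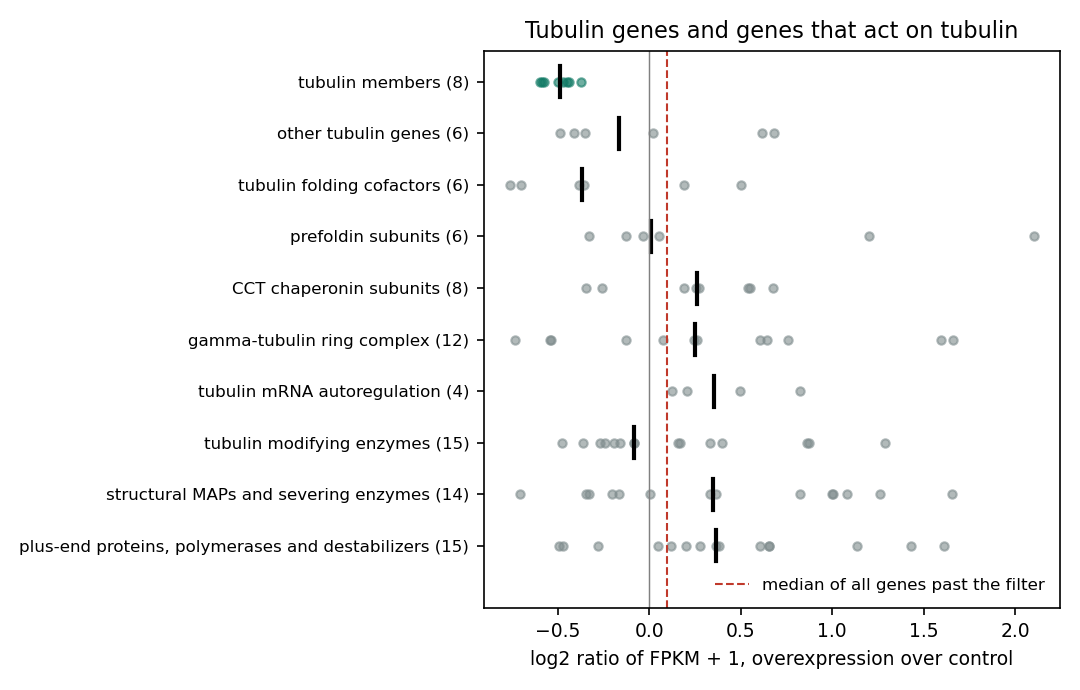
Log2 ratio of FPKM + 1, overexpression over control, of the tubulin members in green and of genes that act on tubulin in grey, with list medians as black bars and the number of measured genes in brackets. The members range from -0.59 to -0.37, left of the dashed line at the all-gene median of 0.10, while the other lists spread over both sides of 0, except the autoregulation list, whose 4 genes lie above it.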

How the data were processed

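The 2 libraries of HGC27 cells each came as 1 table of gene values. The labels do not name the unit. The values were read as FPKM as deposited, since their product with the merged exon length in GENCODE 29 is a whole multiple of 1 step per library, within 0.02 of a fragment, for 93.2% of the genes above 0 in the overexpression library and 92.9% in the control library. The step gave the depth and the fragments per gene, and genes that were not whole in both libraries carry no interval. The tools and build were HISAT2 2.1.0, Bowtie2 2.2.3 and HTSeq 0.6.0 on GRCh38, per the submitters' processing notes. The sources used here do not give their roles, the annotation, or the strand and overlap settings.

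Levels have exact Poisson intervals and ratios Clopper-Pearson intervals at 95%, and comparisons between ratios use a normal approximation to log Poisson counts. Log2 ratios are of FPKM + 1, overexpression over control, over genes whose mean FPKM reached 1, and 2-fold means an absolute log2 ratio of 1. Lowess trends with a span of 0.3 used, per gene, the longest coding transcript that has a 3′ UTR (otherwise the longest transcript). Alternative scalings were applied by moving the libraries by equal and opposite factors. The scripts were checked on simulated data (Python 3.11.15, scipy 1.17.1, statsmodels 0.14.6, Biopython 1.88).

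The members and gene lists were chosen with earlier results of these data known. Named beside the members are LINC01133, up to 3 genes with the highest mean FPKM and up to 3 with the largest absolute log2 ratio in each list, every other tubulin gene, genes whose exons overlap a member, and the 3 protein-coding genes nearest in level to the highest and the lowest expressed member. SCAPER, TUBBP1, MAP1B, KATNAL1, TUBGCP3, TUBGCP4, TUBGCP5 and TUBGCP6 were named after their values were seen. Groups were taken from the genotype label, and a symbol was matched to 28109 of 28303 genes. The coding ends of the alpha-tubulin genes are not reported here.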

Additional observations from a re-analysis of the deposited data

How the results depend on the processing

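No paired analysis was possible because there was a lone library in either group. The median log2 ratio of the 8 members, -0.49, was -0.69 when scaled by median of ratios, -0.70 by trimmed mean of M values and -0.90 by upper quartile, shifts of 0.21, 0.21 and 0.42 in the FPKM of all genes. Without the trends on GC content and length it was -0.12, and 0.0037 with a level trend subtracted as well, an alternative chosen after seeing the data. With all 3 trends subtracted TUBB turned to 0.092, TUBB2B to 0.13, TUBB4B to 0.26 and TUBG1 to 0.026, and with GC content and length alone TUBB4B to 0.045. Under the other scalings, filters and pseudocount those 8 stayed below 0. The count of members 2-fold lower, 0, was 1 at 1.5-fold, and no other setting changed the counts. At 1.5-fold TUBG1 and TUBA1C fell just short, at -0.584 and -0.577. By the upper quartile TUBG1, TUBB2A and TUBA1C came close to 2-fold lower, at -0.998, -0.997 and -0.992. The share of TUBA1A, 47.5% in the overexpression library and 47.4% in the control library, was 43.2% and 42.8% by counted fragments and 46.6% and 46.6% by the lengths of the longest coding transcript. That of TUBB, 49.6% and 47.8%, was 60.3% and 58.7%, and 47.5% and 45.8%.

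Medians of related lists also turned. For prefoldin it was -0.18 by median of ratios, -0.19 by trimmed mean and -0.38 by the upper quartile. By the upper quartile the CCT subunits were at -0.15, the ring complex at -0.077 and the plus-end list at -0.047. Without the trends on GC content and length the CCT subunits were at -0.064, the other tubulin genes at 0.060 and the modifying enzymes at 0.11, and with level subtracted as well the last 2 were at 0.066 and 0.080. Without a filter the other tubulin genes were at 0.0080, and at a mean FPKM of at least 5 the structural list was at -0.20. The scalings moved all genes together by construction, and why medians turned under the trends and filters was not tested. Depth limits TUBB3 and TUBB6 most, with 23 to 38 fragments a library.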
